A study of Homo sapiens with 12 samples.

Results

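The genes described here are 34 genes of glucose breakdown and of the response to low oxygen, chosen by name as 1 row each from a count table of 41878 gene rows. The names came from a fixed list of transporters, enzymes, regulators and hypoxia-responsive genes, and the rule used names only. Each of the 34 had exactly 1 row, and all 34 passed the filter on low counts, which left 18030 genes to be tested.

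The libraries came from HEK293T, a human embryonic kidney line that takes up plasmids readily. They were transfected with 1 µg of plasmid. It was either an empty vector, as the control, or one that expresses TRPML3, an ion channel of the endosome and lysosome membrane whose gene is MCOLN3. They were then kept in 10% serum (fed) or in 0% serum for 4 h (starved), the step the submitters used to switch on autophagy. Polyadenylated RNA was sequenced from 3 biological replicates of each of the 4 groups, named vector fed, vector starved, TRPML3 fed and TRPML3 starved. All cells had been transfected, so the vector groups carry the effects of the procedure too, and plasmid expression was transient in a mixed population. In such bulk RNA, fewer expressing cells and less RNA per cell cannot be told apart. The labels do not say whether a shared replicate number marks a shared day or culture. Oxygen was not varied, and no library had a low-oxygen treatment.

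Glycolysis turns glucose into pyruvate in the cytosol. Hexokinases trap glucose, phosphofructokinases commit it, and lactate dehydrogenase recycles the cofactor by turning pyruvate into lactate, which leaves through monocarboxylate transporters. Many of these genes are targets of hypoxia-inducible factor (HIF), a transcription factor whose alpha subunit is hydroxylated by the EGLN enzymes when oxygen is present and is then destroyed. HIF binds a short core, ACGTG or GCGTG, next to its target genes. Serum factors also act on glucose uptake and on fructose 2,6-bisphosphate, the activator of phosphofructokinase, through growth factor signalling.

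The promoters of 4 members are shown because the results below turn on these genes: SLC2A1 for the difference between replicate numbers in the starvation effect, PFKFB3 and ANKRD37 for their lower starved levels, and PDK1 for its level in replicate 3. Each line holds the 250 bases before a transcription start, from RefSeq on GRCh38.p14, written 5′ to 3′ on the gene's strand. Capitals mark ACGTG on either strand.
SLC2A1: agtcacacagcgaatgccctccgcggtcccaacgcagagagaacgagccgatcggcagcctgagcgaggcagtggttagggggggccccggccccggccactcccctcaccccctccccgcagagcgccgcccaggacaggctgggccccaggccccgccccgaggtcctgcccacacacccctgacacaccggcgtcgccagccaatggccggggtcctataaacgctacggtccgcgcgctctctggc
PFKFB3: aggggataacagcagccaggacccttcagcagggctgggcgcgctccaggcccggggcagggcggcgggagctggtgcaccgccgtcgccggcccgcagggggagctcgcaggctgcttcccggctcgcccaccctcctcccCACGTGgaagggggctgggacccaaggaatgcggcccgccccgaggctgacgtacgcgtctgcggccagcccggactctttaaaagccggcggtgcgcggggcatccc
ANKRD37: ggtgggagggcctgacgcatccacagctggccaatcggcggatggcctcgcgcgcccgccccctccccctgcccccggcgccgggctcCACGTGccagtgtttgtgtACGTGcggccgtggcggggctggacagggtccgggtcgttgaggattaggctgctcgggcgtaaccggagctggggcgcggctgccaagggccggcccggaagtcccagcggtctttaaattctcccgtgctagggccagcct
PDK1: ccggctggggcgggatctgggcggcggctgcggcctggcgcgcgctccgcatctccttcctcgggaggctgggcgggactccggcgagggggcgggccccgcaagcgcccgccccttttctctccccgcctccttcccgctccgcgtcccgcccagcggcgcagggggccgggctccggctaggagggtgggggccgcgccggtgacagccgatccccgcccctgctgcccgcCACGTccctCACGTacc
The windows lie at chr1:42958869-42959118 (minus strand) for SLC2A1, and on the plus strand at chr10:6202682-6202931 for PFKFB3, chr4:185396591-185396840 for ANKRD37 and chr2:172555840-172556089 for PDK1. PFKFB3 and PDK1 have more than 1 listed start, and the window with the most matches was shown. The PFKFB3 window holds the palindrome CACGTG, which counts as 2 matches because it reads as ACGTG on both strands, and the ANKRD37 window holds the same palindrome and a further ACGTG, 3 matches in all. The PDK1 window has 2 matches close to the start, on the opposite strand, and the SLC2A1 window has none. RefSeq windows were found for 29 members, and 18 of them held ACGTG in at least 1 window. Members had up to 7 listed starts, and the same share by gene over all genes was not counted. By window, ACGTG occurred in 37.5% of the 56 member windows and in 18.5% of all 35116 windows of that length. The other core, GCGTG, occurred in 32.1% of the member windows and in 32.2% of all windows. Some members were listed as hypoxia-responsive genes, so a higher share of a HIF core among them is not independent of the list. A match describes letters only and shows no binding. SLC2A3, SLC16A1, PFKFB2, VEGFA and NDRG1 had no window.

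Total counts per library ran from 33101540 to 43700547, and the members together took 0.789% to 1.24% of them. Levels are given as CPM, counts per 1000000 counts of the library after TMM scaling of the library sizes. MCOLN3 ran from 9.31 to 18.4 CPM in the vector libraries and from 4929 to 58223 CPM in the TRPML3 libraries, so every label matched its plasmid. The log2 fold change of MCOLN3 was 10.05 ± 1.03 (SE) in fed and 11.77 ± 1.10 in starved cells (edgeR, adjusted p = 0.0117 and 0.00914), and both calls were lost once replicate number was added to the fit. Among the TRPML3 libraries MCOLN3 was lowest in fed replicates 1 and 2. Of 11 genes expected in HEK293T, 10 passed the filter and NR0B1 had 0 counts in every library. The 10 markers of other cell types summed to between 20.9 and 41.7 CPM, nearly all of it from the collagen genes COL1A1 and COL3A1, with HBB and UMOD at 0.

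Replicate 3 stood apart from replicates 1 and 2. The fed library numbered 3 had a mean Spearman correlation across genes of 0.936 with the other vector fed libraries and of 0.951 with vector starved replicates 1 and 2, and the TRPML3 fed library numbered 3 had 0.935 and 0.945 in the same order. Of 12 libraries 5 were closer to the other serum state, the other 3 (vector starved replicate 1 and TRPML3 starved replicates 1 and 3) by at most 0.0023. Vector starved replicate 3 was closer to its own group, at 0.939 against 0.935. Whether the fed and starved labels of replicate 3 are the right way round was not tested. The labels were used as given, and an exchange would turn every direction of starvation given for replicate 3. The share of counts from mitochondrial genes averaged 3.42%, 1.47% and 5.29% in the libraries numbered 1, 2 and 3. Results on starvation are therefore given with all 12 libraries and again with the 8 libraries numbered 1 and 2. This split was chosen with earlier results of these data known.

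To compare genes with each other, counts were divided by the exon length of each gene and scaled to 1000000 per library. On this per-length scale the members made up 0.836% of all gene expression on average (0.674% to 1.11% over the libraries). LDHB, the lactate dehydrogenase subunit typical of oxidative tissue, led on average with 1823 ± 253 per-length units (SD over 12 libraries), ahead of GAPDH at 1591 ± 274. LDHB and GAPDH overlapped within their spread. GAPDH was the higher one in TRPML3 fed replicate 3 (1548 against 1472) and TRPML3 starved replicate 3 (1687 against 1581). LDHA had 825 ± 162 and ENO1 818 ± 213, so these neighbours in the order overlapped within their spread. TPI1 had 643 ± 69.3, PGAM1 497 ± 63.1 and PGK1 431 ± 97.5. The lowest members were ANKRD37 at 2.51 ± 1.78 and SLC16A3, the lactate exporter typical of glycolytic cells, at 0.544 ± 0.242.

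**Figure D1:**
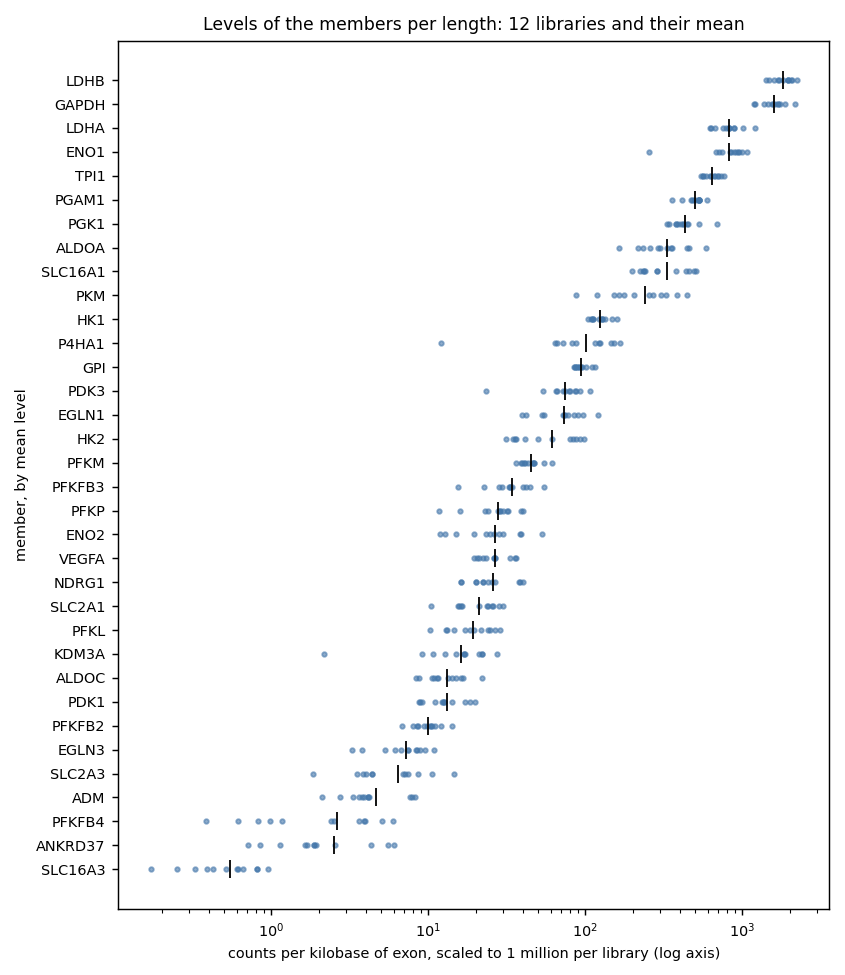
Level of each of the 34 members on the per-length scale (counts per kilobase of exon, scaled to 1000000 per library, log axis), ordered by the mean, with 1 point per library and a bar at the mean of 12 libraries. LDHB and GAPDH are highest and SLC16A3 lowest, and single points far to the left stand out for ENO1, P4HA1, PDK3 and KDM3A.

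Shares of the members within each step were read on the per-length scale. HK1 made up 68.0% of the hexokinase pair and was the higher one in 12 of 12 libraries, and PFKM made up 49.0% of the 3 phosphofructokinases and was highest in 12 of 12. ALDOA supplied 96.0% of the aldolase pair and ENO1 96.7% of the enolase pair. LDHB held 68.8% of the LDHA and LDHB pair, with a range over libraries of 61.1% to 76.6%. SLC16A1 held 99.8% of the SLC16A1 and SLC16A3 pair. PFKFB3 held 72.1% of the 3 bifunctional fructose 2,6-bisphosphate enzymes, PDK3 83.5% of the PDK1 and PDK3 pair, and EGLN1 90.8% of the EGLN1 and EGLN3 pair. SLC2A1 (GLUT1) held 76.2% of the SLC2A1 and SLC2A3 pair and exceeded SLC2A3 (GLUT3) in 11 of 12 libraries, with the exception of vector fed replicate 1. With the longest transcript in place of all exons, the leading isoenzyme of each set stayed the same. Per-length values of SLC16A1 and LDHA rest on lengths matched by symbol, since their identifiers were not in the annotation used.

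The members also differed in how tightly replicates agreed. The within-group SD of log2 CPM had a median of 0.44 over the members and 0.56 over all genes tested, and 9 of 34 members exceeded the latter. GPI, the isomerase of the hexose phosphate steps, was the steadiest at 0.11, followed by LDHB at 0.11 and TPI1 at 0.15. PFKFB4 was the least steady at 1.35, with 0.629 to 8.70 CPM. Several abundant members had 1 library far below the rest: KDM3A, a histone demethylase, read 7.25 CPM in vector starved replicate 2 against 34.9 and 70.6 in its group. P4HA1, a collagen prolyl hydroxylase subunit, read 13.2 CPM in TRPML3 starved replicate 3 against 72.6 and 53.2. ENO1 read 383 CPM in TRPML3 starved replicate 1 against 1047 and 1334. PKM, pyruvate kinase, ran from 199 to 913 CPM, and both ends were fed libraries numbered 2.

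**Figure D2:**
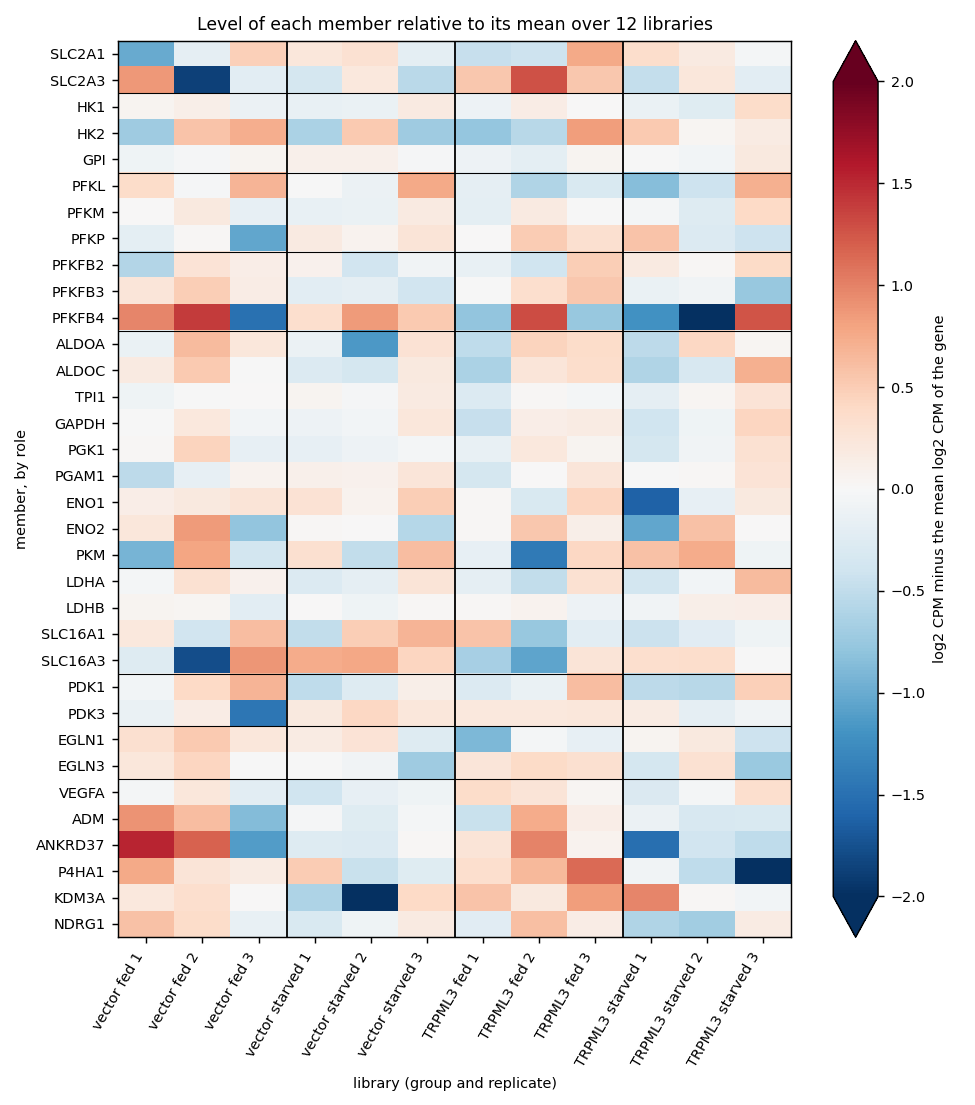
Colour gives log2 CPM of each member minus its mean over the 12 libraries, with members in rows by role and libraries in columns by group and replicate. Enzymes such as GPI, TPI1 and LDHB are pale throughout, while PFKFB4, ANKRD37, P4HA1 and KDM3A hold the darkest cells, several of them in 1 library of a group.

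To ask how serum withdrawal altered these genes, starved and fed libraries were compared over both plasmids (6 against 6). None of the 34 members passed an adjusted p of 0.05 (edgeR's quasi-likelihood test, Benjamini-Hochberg over 18030 genes), and 0% of all genes did. At an unadjusted p under 0.05 there were 4 members, all lower when starved (PFKFB3, ANKRD37, P4HA1 and EGLN3), which is 11.8% of members, while 4.79% of all genes reached that p with a lower level and 9.45% in either direction. The median log2 fold change was -0.085 over the members and 0.0062 over all genes, and 15 members lay above 0, or 44.1%, against 50.7% of all genes.

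PFKFB3 makes fructose 2,6-bisphosphate and so raises phosphofructokinase activity. In vector cells it read 67.0, 79.6 and 63.1 CPM when fed and 49.0, 50.4 and 43.4 when starved. With TRPML3 the fed libraries read 56.4, 71.9 and 82.9 CPM and the starved ones 51.9, 54.1 and 33.5. All 6 fed libraries lay above all 6 starved libraries, which held for no other member and for 0.499% of all genes tested. Over both plasmids DESeq2's Wald test called 287 genes and 1 member, PFKFB3 (adjusted p = 0.0408). As a share, 1 of 34 members does not set the members apart from all genes (both shares are given under the processing). The log2 fold change of PFKFB3 was -0.58 ± 0.16 (SE), with an adjusted p of 0.363 in edgeR's test. It was -0.55 ± 0.23 in vector cells and -0.60 ± 0.23 in TRPML3 cells, but without the libraries numbered 3 the TRPML3 value was -0.27 and the vector value -0.55. Its relatives gave no such separation: PFKFB2 had 0.037 ± 0.21, and PFKFB4 had -0.21 ± 0.67, a value that changed sign when single libraries were left out.

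All 6 members grouped as other hypoxia-responsive genes had log2 fold changes below 0, although none passed the test. The sign was the same under all 3 scalings tried, which use the same counts. Of all genes 50.7% lay above 0. ANKRD37, an ankyrin repeat protein gene, read 4.26, 3.38 and 0.689 CPM in vector fed and 1.25, 1.23 and 1.51 in vector starved libraries. Its TRPML3 libraries read 1.78, 2.94 and 1.57 CPM when fed and 0.526, 1.14 and 1.04 when starved. Starved levels were low throughout, and the 1 fed library among them was vector fed replicate 3. The log2 fold change was -1.14 ± 0.41 (edgeR, adjusted p = 0.431).

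P4HA1 read 129, 91.1 and 85.0 CPM in vector fed and 108, 55.7 and 64.0 in vector starved libraries. With TRPML3 it read 96.2, 119 and 166 CPM when fed and 72.6, 53.2 and 13.2 when starved, without overlap. Its log2 fold change was -0.94 ± 0.36 (edgeR, adjusted p = 0.462), and -0.59 without replicate 3. NDRG1, a stress-responsive gene, had -0.44, ADM (adrenomedullin) -0.48, KDM3A -0.43 and VEGFA, the vascular growth factor, -0.21. Adjusted p-values for these 4 ran from 0.564 upward. Fed and starved levels overlapped for all of them. Within replicate 3, VEGFA and NDRG1 were higher when starved with both plasmids, and ANKRD37, ADM and KDM3A with vector. Only P4HA1 was lower with both.

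The oxygen sensors differed from each other. EGLN3, itself a HIF target, had a median of 17.3 CPM in fed libraries (range 14.1 to 19.2) and of 12.3 in starved ones (range 8.48 to 17.5). Starved was lower than fed in 6 of 6 pairs of the same plasmid and number (here and below such pairs are matched by number only, since fed and starved libraries of a number did not deviate together), and the log2 fold change was -0.49 ± 0.22 (edgeR, adjusted p = 0.519). EGLN1, the main oxygen sensor in most cells, had medians of 154 and 156 CPM and a log2 fold change of 9.7e-05 ± 0.18.

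Differences were smaller for most enzymes of the pathway. Log2 fold changes of the 9 members of lower glycolysis, from aldolase to pyruvate kinase, ran from -0.32 (ENO2) to 0.44 (PKM), and 4 of 9 lay above 0. GAPDH had 0.013 ± 0.16 and TPI1 0.12 ± 0.1, and PGAM1, the mutase, had 0.22 ± 0.13 with starved above fed in 6 of 6 same-numbered pairs. That held for no other member and for 3.87% of all genes. The hexose phosphate steps had -0.027 for HK1, -0.12 for HK2 and 0.10 for GPI, and the phosphofructokinases 0.11 for PFKL, 0.0085 for PFKM and 0.12 for PFKP. Lactate dehydrogenase gave 0.022 for LDHA and 0.042 for LDHB. Scaling by library size alone shifted the median of all genes by -0.064 and left 9 members above 0 in place of 15, and the small values of PFKM, PFKFB2, GAPDH, LDHA, LDHB and EGLN1 turned negative (that of EGLN1 also with DESeq2's size factors). PDK1, a kinase of pyruvate dehydrogenase, read a median of 60.8 CPM when fed and 41.2 when starved. It was lower when starved in 6 of 6 same-numbered pairs. PFKFB3, EGLN3, P4HA1 and PDK1 were the 4 members with that pattern, 11.8% against 3.82% of all genes, and the log2 fold change of PDK1 was -0.40 ± 0.25 (edgeR, adjusted p = 0.683).

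**Figure D3:**
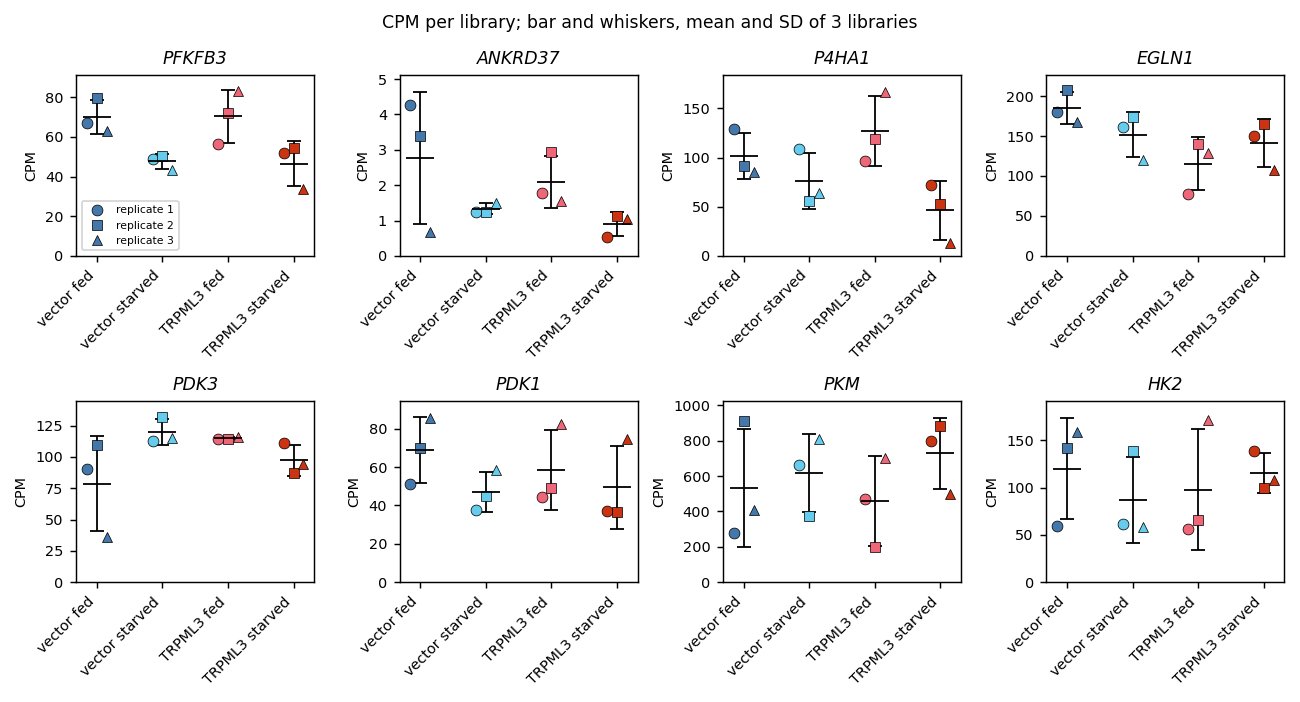
CPM per library in the 4 groups for 8 members, with symbols for the replicate number and bars and whiskers for the mean and SD of 3 libraries. PFKFB3 is lower in both starved groups without overlap, EGLN1 is lower in TRPML3 fed than in vector fed libraries, and PDK1 is highest in replicate 3 of every group.

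In the 8 libraries numbered 1 and 2, 4.49% of 18052 genes passed an adjusted p of 0.05 for starvation and 0 members did. At an adjusted p under 0.1, 4 members passed against 11.2% of all genes, and at an unadjusted p under 0.05 there were 9 members, or 26.5%, against 23.3%. ANKRD37 came closest, with a log2 fold change of -1.55 ± 0.32 (edgeR, adjusted p = 0.0542). SLC16A3 followed with 1.39 ± 0.36 (0.0864), NDRG1 with -0.77 ± 0.20 (0.0883) and SLC2A1 with 0.76 ± 0.21 (0.0992), adjusted p-values in parentheses. Fed and starved libraries did not overlap for 2 members that were higher when starved, SLC2A1 and SLC16A3, and for 4 that were lower, HK1, PFKFB3, VEGFA and ANKRD37, against 10.1% of all genes in each direction. The median log2 fold change of the members was -0.22 in these libraries. Of the 4 members with an unadjusted p under 0.05 in all 12 libraries, 3 had values nearer 0 here, PFKFB3 at -0.41 ± 0.13, P4HA1 at -0.59 ± 0.26 and EGLN3 at -0.33 ± 0.20.

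**Figure D4:**
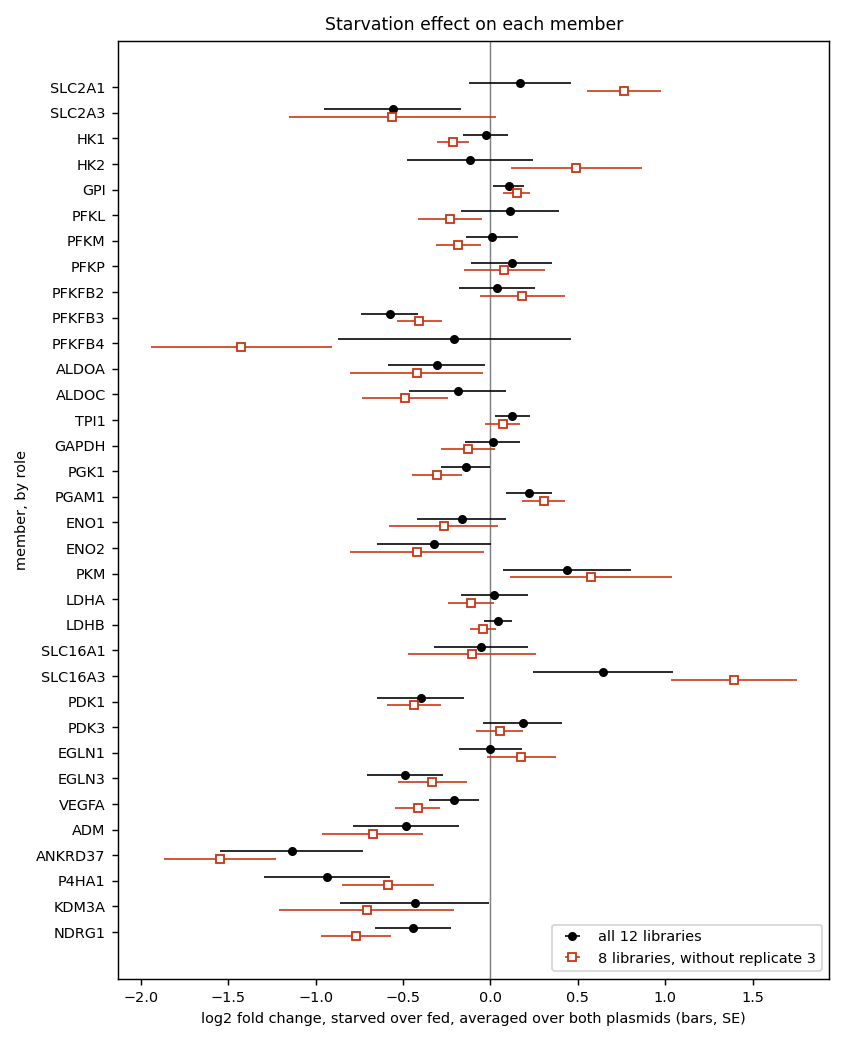
Log2 fold change (starved over fed, averaged over both plasmids, bars 1 SE) of each member from all 12 libraries (filled) and from the 8 libraries without replicate 3 (open). SLC2A1 goes from 0.17 to 0.76, SLC16A3 from 0.64 to 1.39 and PFKFB4 from -0.21 to -1.42, while PFKFB3 stays between -0.58 and -0.41.

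The starvation effect in replicate 3 was then compared with that in replicates 1 and 2, a comparison chosen after seeing the data. It called 1 member, SLC2A1, or 2.94%, against 7.18% of all genes (1294 of 18030, edgeR, adjusted p under 0.05). With 1 library left out the count of genes fell in every case, to between 139 (0.747%, without TRPML3 starved replicate 3) and 985 (5.28%, without TRPML3 fed replicate 1), and it was 286 without vector fed replicate 3. At an unadjusted p under 0.05 there were 12 members, or 35.3%, against 24.6% of all genes. SLC2A1, the basal glucose transporter, read 13.5 CPM fed and 31.7 starved in vector replicate 1, and 23.8 and 33.3 in vector replicate 2. In TRPML3 cells it read 19.6 fed and 34.6 starved in replicate 1, and 20.4 and 30.5 in replicate 2. Starved was thus above fed in 4 of 4 pairs. In replicate 3 the order was reversed, with 37.8 CPM fed and 23.7 starved in vector cells and 45.6 fed and 26.3 starved in TRPML3 cells.

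The difference between the starvation effects on SLC2A1 was -1.50 ± 0.30 on the log2 scale (edgeR, adjusted p = 0.0288). The call was lost, with adjusted p-values of 0.0583 to 0.117, when 1 library was left out in 8 of 12 cases (vector fed replicate 3, each vector starved replicate, TRPML3 fed replicates 2 and 3, TRPML3 starved replicates 1 and 3). The size stayed between -1.65 and -1.36 in all 12. Averaged over all libraries the starvation effect on SLC2A1 was 0.17 ± 0.29, which combines the opposite directions, and it was -0.17 without the libraries numbered 1. The SLC2A1 window shown above holds neither core motif, which says nothing of sites outside it. Any link between such sites and the starvation effect was not tested.

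The other members nearest the threshold went in both directions. SLC16A3 had -1.80 ± 0.50 (edgeR, adjusted p = 0.0713), and its starved levels exceeded the fed ones in 4 of 4 pairs of replicates 1 and 2 and in 0 of 2 pairs of replicate 3. Its counts were small, from 16 upward per library. VEGFA had 0.64 ± 0.18 (0.0745) and HK1 0.55 ± 0.16 (0.0758), adjusted p-values in parentheses, and both were lower when starved in 4 of 4 pairs and higher in 2 of 2. In VEGFA the fed level of replicate 3 was the lowest of the 3 for either plasmid, 92.4 CPM with vector and 109 with TRPML3. In all, 7 members were opposite in replicate 3 to replicates 1 and 2 (SLC2A1, HK1, PFKFB4, PGK1, SLC16A3, VEGFA and NDRG1), or 20.6% of members against 17.4% of all genes. In replicate 3 the glucose transporter and the lactate exporter were lower when starved, and HK1, PFKFB4, PGK1, VEGFA and NDRG1 were higher.

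**Figure D5:**
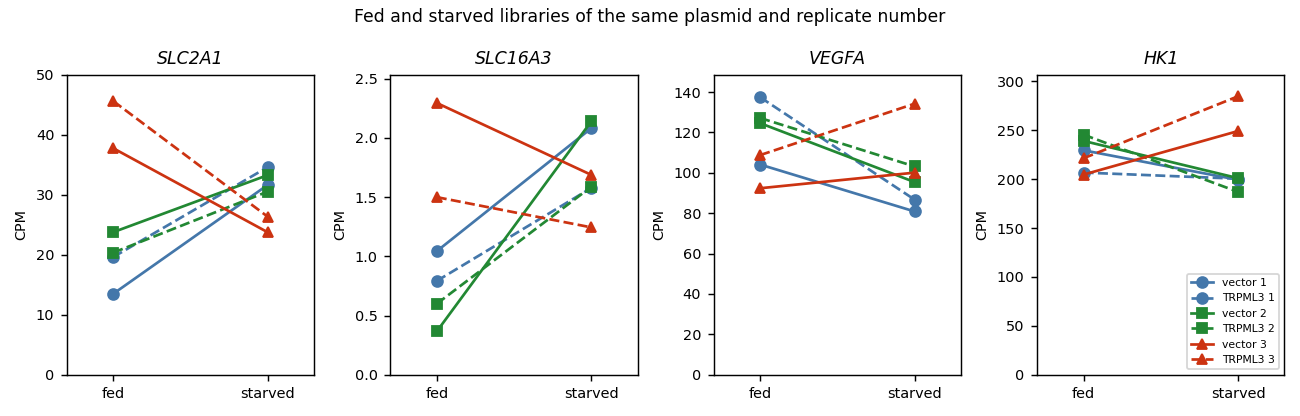
CPM in fed and starved libraries joined by plasmid and replicate number for SLC2A1, SLC16A3, VEGFA and HK1, with solid lines for vector and dashed lines for TRPML3. The lines of replicate 3 run against those of replicates 1 and 2 in all 4 genes.

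Replicate numbers were also compared across groups. Against replicates 1 and 2, replicate 3 had 0 members at an adjusted p under 0.05 (0.0166% of all genes) and 4 at an unadjusted p under 0.05, all higher (11.8% of members, against 6.15% of all genes higher and 12.6% in either direction). PDK1 was first with 0.72 ± 0.14 (edgeR, adjusted p = 0.124). DESeq2's Wald test called 1024 genes for replicate 3, a larger share of all genes than of members. The 1 member among them was PDK1 (adjusted p = 4.14e-05). Its replicate 3 libraries read 85.7, 58.3, 82.2 and 74.6 CPM in vector fed, vector starved, TRPML3 fed and TRPML3 starved cells, each the highest of its group. The next highest in each group were 70.2, 44.9, 48.9 and 37.4 CPM. LDHA had 0.49 ± 0.15, PGAM1 0.32 ± 0.096 and PFKL 0.70 ± 0.21. Replicate 3 was highest in all 4 groups for PDK1, PGAM1 and ENO1, 3 members or 8.82%, against 4.38% of all genes. Members lay above 0 in 23 of 34 cases, or 67.6%, against 52.3% of all genes. The mitochondrial share was highest in the same libraries, and its part in these values was not tested. Between replicates 2 and 1, 0 members passed (0% of all genes) and 0 had an unadjusted p under 0.05 (2.88%), and the smallest unadjusted p-values belonged to GAPDH (0.29), ENO2 (0.64) and PGK1 (0.29), log2 differences in parentheses.

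To ask what TRPML3 did to these genes, its libraries were set against vector libraries in each serum state, without pairing by replicate number in the fit. In fed cells 0 members passed (0.0111% of all genes, edgeR), and 1 member, EGLN1, had an unadjusted p under 0.05 (2.94%, against 2.21%). EGLN1 read 179.9, 208 and 168 CPM with vector and 77.2, 140.2 and 129 with TRPML3, without overlap, and its log2 fold change was -0.68 ± 0.25 (edgeR, adjusted p = 1). In starved cells the groups overlapped, with 161, 174 and 120.1 CPM for vector and 150.2, 165 and 107 for TRPML3 and a log2 fold change of -0.11 ± 0.25. By replicate number EGLN1 was lower with TRPML3 in 6 of 6 pairs, as was PFKL, which is 5.88% of members against 2.07% of all genes. VEGFA went the other way, lower with TRPML3 in 0 of 6 pairs and higher in each. The share of all genes higher in every pair was not counted. PFKL, the liver-type phosphofructokinase, read 60.2, 46.2 and 75.1 CPM with vector and 41.2, 31.0 and 37.8 with TRPML3 in fed cells, again without overlap, and had -0.72 ± 0.40. PFKP, the platelet type, had 0.62 ± 0.33, with vector fed replicate 3 the low library at 17.6 CPM. The counts without overlap were 1 member higher (PDK3) and 2 lower (EGLN1 and PFKL), against 3.22% and 3.87% of all genes. DESeq2's Wald test called 0 members for TRPML3 in fed cells (0.167% of all genes), in starved cells (0.239%) and on average (0.161%), shares at which a count of 0 among 34 says little.

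In starved cells 0 members passed either (0.00555% of all genes), and none had an unadjusted p under 0.05 (2.20% of all genes). ENO1 was first with -0.64 ± 0.36, which rests in part on TRPML3 starved replicate 1 and was -0.27 without it. KDM3A followed with 0.90 ± 0.61, which was 0.42 without vector starved replicate 2, and SLC16A1, the widespread lactate transporter, had -0.55 ± 0.38. TRPML3 libraries lay below vector libraries without overlap for SLC16A3, PDK3 and ANKRD37, 8.82% of members against 3.56% of all genes. The ANKRD37 and SLC16A3 levels there were at most 2.14 CPM. The median of the members was -0.070 in fed and 0.012 in starved cells, against -0.0094 and -0.0060 over all genes. Averaged over serum states 0 members passed (0.0111% of all genes) and 0 had an unadjusted p under 0.05 (2.62%), with EGLN1 at -0.39 ± 0.18 first, PFKL at -0.51 ± 0.28 next and VEGFA at 0.22 ± 0.14.

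Whether TRPML3 altered the response to starvation was tested by the interaction, in which 0 members and 0% of all genes passed (edgeR). At an unadjusted p under 0.05 there were 0 members, against 2.07% of all genes, and DESeq2's Wald test called 0 members (0.150% of all genes). The smallest unadjusted p of a member belonged to PDK3, another kinase of pyruvate dehydrogenase. With vector it read 90.02, 109 and 36.2 CPM when fed and 113, 132 and 115 when starved. With TRPML3 it read 114, 114 and 116 CPM when fed and 111, 86.8 and 94.1 when starved. Starved exceeded fed without overlap in vector cells and lay below it without overlap in TRPML3 cells, by log2 fold changes of 0.61 ± 0.32 and -0.24 ± 0.32. Of all genes, 5.36% and 5.66% lay apart in these directions. The log2 fold change of PDK3 in vector cells was 0.27 without vector fed replicate 3. The interaction was -0.85 ± 0.45 (edgeR, adjusted p = 0.9999), and -0.51 without vector fed replicate 3, the library with the lowest level. PFKP had -0.76 ± 0.47 and EGLN1 0.57 ± 0.36, both with the same adjusted p. MCOLN3 itself was uneven in the TRPML3 libraries, with 6211, 4929 and 39972 CPM when fed and 41362, 58223 and 16896 when starved. It was thus higher when starved in replicates 1 and 2 and lower in replicate 3. The part of its level in the interaction and in the starvation comparison of TRPML3 cells was not tested.

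Within each plasmid the starvation comparisons also called 0 members (0.00555% of all genes in vector and 0% in TRPML3 cells), as did DESeq2's Wald test (0.239% and 0.490%). In vector cells 1 member, PFKFB3, had an unadjusted p under 0.05 (2.94%, against 4.44%), and in TRPML3 cells 2 members did, P4HA1 and PFKFB3 (5.88%, against 5.71%). P4HA1 had -1.46 ± 0.52 in TRPML3 cells and -0.42 ± 0.51 in vector cells, and its interaction was -1.04 ± 0.72. Without the libraries numbered 3, which include the one at 13.2 CPM, these were -0.76, -0.41 and -0.36. Without overlap, starved libraries were higher for PFKP, PGAM1 and PDK3 and lower for PFKFB3 and EGLN3 in vector cells (8.82% and 5.88% of members, against 5.36% and 4.57% of all genes). In TRPML3 cells 5 members were lower without overlap, SLC2A3, PFKFB3, PDK3, ANKRD37 and P4HA1, or 14.7%, against 5.66%, and 0 were higher (5.56%).

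Other genes of these pathways were read from 3 lists. For average starvation none of the 13 HIF pathway regulators tested passed, nor did any of 27 other hypoxia-responsive genes or 30 other glycolysis genes. HIF1A, the oxygen-regulated subunit, had 169.7 to 274 CPM and a log2 fold change of 0.029 ± 0.13. The 3 regulators with the smallest p were CITED2 at 0.48, ELOB at 0.20 and EGLN2 at 0.34. Of the other hypoxia-responsive genes 6 of 27 lay above 0, against 50.7% of all genes, and the median of the 27 was -0.22. DDIT4, an inhibitor of mTORC1, had -1.02 ± 0.27 (edgeR, adjusted p = 0.352). In the 8 libraries numbered 1 and 2 it passed at -1.29 (edgeR, adjusted p = 0.0259), as did 4.49% of all genes there. It had been picked by its p in all 12 libraries, which include these 8. BHLHE40, a repressor, had -0.89 ± 0.29.

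ERO1A, an oxidase of the endoplasmic reticulum, read 124, 175 and 0.918 CPM in vector fed and 96.1, 1.68 and 107 in vector starved libraries, and 187, 235 and 4.70 and 0.818, 1.08 and 1.27 with TRPML3. It was either near 100 CPM and above or at a few CPM and below, in fed and starved libraries alike, and its log2 fold change of -3.81 ± 1.25 rests on which libraries were low.

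In the list of other glycolysis genes the smallest p-values belonged to ARRDC4, TXNIP and PDK4, and none of these passed. ARRDC4, an arrestin that limits glucose uptake, read 163, 151 and 79.4 CPM in vector fed and 61.6, 59.6 and 56.2 in vector starved libraries. With TRPML3 it read 98.9, 153 and 94.1 CPM when fed and 53.4, 57.6 and 60.4 when starved. Every fed library lay above every starved one. The log2 fold change was -1.08 ± 0.20 (edgeR, adjusted p = 0.299). TXNIP, its relative, had -1.51 ± 0.41 and PDK4 -1.22 ± 0.41. All 3 passed for starvation in the 8 libraries numbered 1 and 2, at -1.27, -1.88 and -1.46 (edgeR, adjusted p = 0.0259, 0.0357 and 0.0298). In those libraries 4.49% of all genes passed. The 3 genes were picked by their p in all 12 libraries, which include these 8, so their passing is no separate support. The difference between replicate 3 and replicates 1 and 2 in the starvation effect called 2 of the 27 hypoxia-responsive genes, DDIT4 (1.17) and CXCR4 (2.83), 1 of the 30 glycolysis genes, BPGM (1.38), and 0 of the 13 regulators, log2 differences in parentheses, against 7.18% of all genes. These 3 genes were named after their values were seen.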

How the data were processed

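Polyadenylated RNA from 12 HEK293T libraries was sequenced, and the authors deposited a table of whole-number counts per gene and a table of normalized values. Per the submitters' processing notes, FastQC, fastp, HISAT2, StringTie and DESeq2 were used with GRCh38, without versions or roles. The annotation, and whether counting used strand, are not given in the sources used here. The deposited normalized signal equals the count divided by 1 factor per library, for 23252 rows. Reads shared by similar genes, such as ENO1 or GAPDH and their pseudogenes, could be split by that counting.

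The counts were tested with edgeR 4.0.16 (R 4.3.3) after TMM normalization and filterByExpr, in 1 robust quasi-likelihood fit of all 12 libraries (8 residual degrees of freedom), with Benjamini-Hochberg adjustment over 18030 genes and a threshold of 0.05. The 7 comparisons of the 4 groups came from this fit, and those between replicate numbers from a fit with the replicate number added (6 residual degrees of freedom). The comparison of starvation effects between replicate numbers used another fit. It held plasmid, starvation, replicate number and a term for starvation in replicate 3. It had no term for plasmid by starvation, so both plasmids were taken to share the starvation effects. Because the depth was at least 33101540 counts in every library, a level of 3 counts corresponds to at most 0.0978 CPM, and for most members the spread between libraries, more than counting error, limits precision. Lengths came from GENCODE release 29, by identifier for 32 members and by symbol for LDHA and SLC16A1. DESeq2 1.42.0 and limma 3.58.1 served as alternatives, with other scalings, filters, thresholds and left-out libraries. The script was tested on simulated data with a smaller spread between replicates than these libraries have. That test therefore does not show which differences can be detected here.

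Same-numbered fed libraries of the 2 plasmids shared deviations from their group means across genes. Their r was 0.10, 0.13 and 0.30 for numbers 1, 2 and 3. The numbers were therefore taken to pair the plasmids, but only in counts of same-numbered pairs and in fits with the replicate number added. The edgeR fold changes, SE and p-values given in Results for the group comparisons came from the fit without the replicate number. They are unpaired values. In starved libraries r was 0.12, 0.086 and 0.30, and between fed and starved libraries from -0.072 to 0.0049. No 2 libraries agreed within counting noise (chi-square per degree of freedom at least 139 in 66 pairs). The members and lists were chosen with earlier results of these data known, and the comparison of starvation effects between replicate numbers was chosen after seeing the data. Full values are given for members called in any comparison, for up to 3 members with the smallest p in each comparison, and for up to 3 genes of each pathway list with the smallest p for average starvation. Other members named with full values were chosen after their values were seen.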

Additional observations from a re-analysis of the deposited data

Results flagged for a closer look

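PDK3 stood out because its groups lay apart in opposite directions in 2 settings. TRPML3 libraries were above vector libraries without overlap in fed cells (log2 fold change 0.55) and below them without overlap in starved cells (-0.30). Starved libraries were above fed ones without overlap in vector cells (0.61) and below them in TRPML3 cells (-0.24). Of all genes, 3.22%, 3.56%, 5.36% and 5.66% lay apart in these comparisons and directions, in the same order. The share of all genes with all of these separations together was not counted. The difference was tested by the interaction, which did not pass (edgeR, adjusted p = 0.9999). Vector fed replicate 3, at 36.2 CPM, was the library farthest from its group. Without it the value was 0.20 for TRPML3 in fed cells and 0.27 for starvation in vector cells.

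SLC2A1 stood out because the effect of starvation differed between replicate 3 and replicates 1 and 2 by -1.50 on the log2 scale (edgeR, adjusted p = 0.0288), with opposite directions in the 2 sets of libraries. The same comparison, chosen after seeing the data, called 7.18% of all genes, or 0.747% without TRPML3 starved replicate 3 and 1.53% without vector fed replicate 3. SLC2A1 was the only 1 of the 34 members called, a smaller share than that of all genes. Its call was lost in 8 of 12 fits with 1 library left out.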

How the results depend on the processing

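Of 232 refits that counted called members, 218 gave 0. These refits reuse the same libraries, and in most comparisons hardly any gene passed in edgeR's test. A count of 0 among 34 members therefore says little in them. DESeq2's Wald test called 1 member for average starvation (PFKFB3), 1 for replicate 3 against 1 and 2 (PDK1) and 5 for the difference between replicate numbers in the starvation effect, or 2.94%, 2.94% and 14.7% of members against 1.81%, 5.68% and 19% of all genes. For that difference, 3 members were called with library size only (8.82%, against 7.18% of all genes), 2 with at least 10 counts in every library (5.88%, against 10.5%), 4 at an adjusted p under 0.1 (11.8%, against 13.6%), and 0 to 1 with a library left out. Over all genes DESeq2 called 30 for TRPML3 when fed and 43 when starved, 29 on average, 43 and 88 for starvation with vector and with TRPML3, 287 on average, 27 for the interaction, 1024 for replicate 3, 55 for replicate 2 against 1 and 3421 for the difference between replicate numbers. With MCOLN3 left out, TRPML3 gave 1 gene in fed cells, 0 in starved cells and 1 on average. With the replicate block, which is the paired fit, TRPML3 gave 0 in fed and 0 in starved cells and 1 on average, starvation in vector cells gave 0, and no count of members changed. With only the libraries compared, the counts were 1, 3 and 0 for TRPML3 fed, TRPML3 starved and starvation in vector cells. Without a filter, replicate 3 gave 0 genes and the difference between replicate numbers 797. With at least 10 counts, replicate 3 gave 33. At an adjusted p under 0.1 these gave 57 and 2461.

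With libraries or replicate numbers left out, genes called ran from 0 to 4 for TRPML3 in fed cells, 0 to 5 in starved cells and 0 to 6 on average, 0 to 2 for starvation in vector cells, 0 to 3 in TRPML3 cells, 0 to 810 on average, 0 to 3 for the interaction, 0 to 18 for replicate 3 and 139 to 985 for the difference between replicate numbers. The median of the members ran from -0.18 to 0.072 for TRPML3 in fed cells, from -0.22 to -0.011 and from -0.22 to 0.079 for starvation in vector and TRPML3 cells, from -0.11 to 0.12 for the interaction and from 0.11 to 0.42 for the difference between replicate numbers. Average starvation for SLC2A1 ran from -0.17 (without replicate 1) over -0.0013 (without replicate 2) to 0.76 (without replicate 3), and reversed in the first of these and at -0.0013. For PFKFB4 it ran from -1.42 (without replicate 3) to 0.75 (without replicate 2), with reversed values of 0.75, 0.047, 0.32 and 0.037, the last 3 with vector fed, TRPML3 fed or TRPML3 starved replicate 2 left out. With the longest transcript, members made up 1.10% of per-length expression. The cause of these changes was not tested. The common biological coefficient of variation of 0.527 limits which differences can pass.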
